A study of Mus musculus with 2 samples.

Results

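The nicotinic acetylcholine receptor alpha subunit genes are 9 mouse genes, Chrna1 to Chrna7, Chrna9 and Chrna10. They were taken by symbol from the gene annotation of the series, in which they held 279 of 1511492 rows and were 9 of 22048 protein-coding genes and of 27998 mouse genes in all. The series has an Ikzf2 library, from cochleae given the Anc80-Ikzf2 virus, and a GFP library, from cochleae given the Anc80-GFP control virus, with 1 library in each group. Both came from mice at postnatal day 8 that carried Myo15-Cre and the Ai14 reporter, so that cells with a history of Cre driven by the hair cell gene Myo15 made tdTomato, and tdTomato-positive cells were sorted before droplet capture with 3' chemistry. The file analysed here was the annotation; expression in the Ikzf2 and GFP libraries, their depth and their cell types were not analysed here. The values below are lengths and positions in gene models on assembly GRCm38, which have no replicates and no sampling error, so no test was run on them.

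A nicotinic receptor is a ring of subunits around a cation channel, and each subunit is made by its own gene. The products of Chrna9 and Chrna10 form the receptor with which hair cells answer acetylcholine from the efferent neurons of the brainstem. Calcium that enters through it opens a calcium-activated potassium channel, and the hair cell is inhibited. In the mature cochlea these efferent fibres contact mainly outer hair cells, whereas before hearing they contact inner hair cells directly. Chrna1 encodes the alpha subunit of muscle, Chrna7 a neuronal subunit that can form a receptor by itself, and Chrna2, Chrna3, Chrna4 and Chrna6 encode neuronal subunits that join with beta subunits. Chrna5 encodes an accessory subunit, which takes a place in the ring without contributing the usual ligand-binding face.

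Alpha subunits are named for a pair of neighbouring cysteines in the loop that closes over acetylcholine. This place is shown because it is what the 9 genes have in common. The sequences are 30 coding bases each, 5' to 3' on the coding strand, from GENCODE M21 transcripts with the same coding blocks as the models here, and the capitals mark the codons of the cysteine pair.
Chrna9: atctcctacggcTGCTGCtcggagccttac
Chrna10: ctcacctacggcTGCTGCtccgagccctac
Chrna7: aagttctatgaaTGCTGCaaagagccatac
Chrna1: gtgttctactccTGCTGCcccaccactccc
Chrna4: aggaagtatgaaTGCTGTgccgagatctat
Chrna5: cggacggacagcTGCTGCtggtacccctgc

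The Chrna9 window lay at chr5:65971093-65971122 on the plus strand and that of Chrna10 at chr7:102113313-102113342 on the minus strand, each inside coding exon 4 of its gene. The pair began at codon 219 in Chrna9 and codon 218 in Chrna10. The windows of Chrna7 (chr7:63106146-63106175), Chrna1 (chr2:73570534-73570563) and Chrna4 (chr2:181029266-181029295) were on the minus strand, and that of Chrna5 (chr9:55004605-55004634) was on the plus strand. A pair was found in 9 of the 9 alpha genes. It was found in 0 of the 7 other nicotinic subunit genes (Chrnb1 to Chrnb4, Chrnd, Chrne and Chrng) within the 70 codons searched after the conserved loop of 13 residues between cysteines. A tyrosine codon stood 2 codons before the pair in Chrna9, in Chrna10 and in 6 of the 7 other alpha genes, and Chrna5 was the exception. Chrna9 matched Chrna10 at 26 of the 30 bases of the window. Of the other 7 alpha genes, it matched Chrna7 and Chrna2 best, at 20 bases each, and Chrna4 least, at 15.

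The coding exons separated Chrna9 and Chrna10 from the rest of the family. Each gene is described by a representative transcript, the protein-coding one with the longest coding sequence. Both genes had 5 coding exons, which 45.2% of protein-coding genes did not exceed, so a low exon number by itself is common. The other 7 alpha genes had 6 to 10. In Chrna9 the coding exons held 64, 146, 155, 533 and 542 bases. In Chrna10 they held 61, 146, 155, 533 and 449 bases. Exons 2, 3 and 4 were therefore equal in length in both genes and gave 834 coding bases in each. The whole difference in coding length, 96 bases or 32 codons more in Chrna9, came from 3 bases in the first exon and 93 bases in the last.

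**Figure D1:**
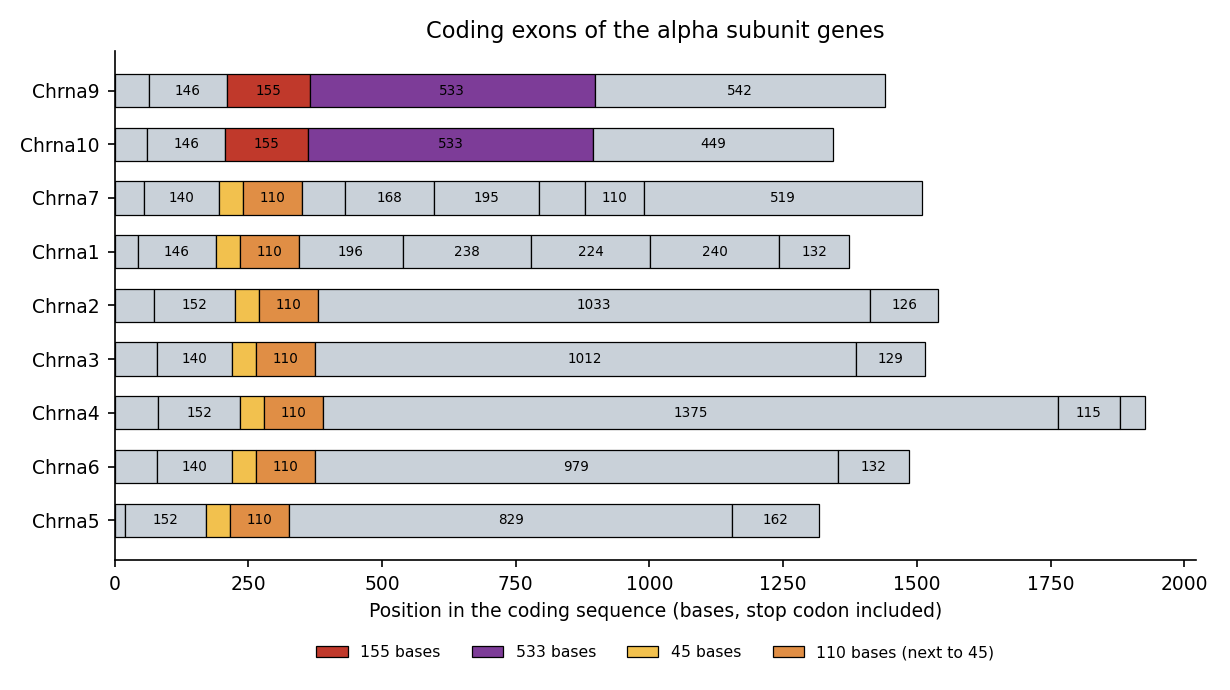
Coding exons of the 9 alpha subunit genes, drawn to scale along the coding sequence in bases, with Chrna9 and Chrna10 at the top; each block is 1 coding exon of the representative transcript, and lengths of at least 100 bases are written in it. The 155-base and 533-base exons appear in Chrna9 and Chrna10, and the other 7 genes have a 45-base exon followed by a 110-base exon at the same place.

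Where Chrna9 and Chrna10 had the 155-base exon, each of the other 7 alpha genes had an exon of 45 bases followed by an exon of 110 bases, which add up to 155. This pair was present in 0 of the 2 efferent subunit genes, in 7 of the 7 other alpha genes and in 7 of the 7 other nicotinic subunit genes. Across the annotation, 19 of 21990 protein-coding genes (0.0864%) had adjacent coding exons of these lengths. Apart from the 14 nicotinic genes they were Htr3a and Htr3b, which encode subunits of the related serotonin-gated channel, and Spag16, E2f5 and Hspg2. Adjacent coding exons of 155 and 533 bases were found in 2 genes (0.00910%), Chrna9 and Chrna10. The exon lengths compared are those common to the efferent pair and to the other alpha genes; they and the genes outside the nicotinic family were picked out after their values were seen, so the counts describe the annotation and test nothing.

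The place of the missing boundary is shown next, because it is where the exons of Chrna9 and Chrna10 depart from those of the other genes. Each sequence has 15 bases on either side of the point 45 bases into the 155-base stretch. Lower case is the stretch before it and capitals the stretch after it, and in all but Chrna9 and Chrna10 an intron lies between lower case and capitals.
Chrna9: ctgtggatccgccaaACTTGGCACGATGCG
Chrna10: ctgtggatccggcagGAGTGGACAGACGCC
Chrna7: atttggctacaaatgTCTTGGACAGATCAC
Chrna1: gtacgtctgaaacagCAATGGGTCGATTAC
Chrna4: gtgtgggtgaagcagGAGTGGCATGACTAC

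In Chrna9 the 30 bases were continuous on the genome (chr5:65969145-65969174, plus strand), as they were in Chrna10 (chr7:102114320-102114349, minus strand). On the minus strand in Chrna7 (chr7:63148678-63159551 with the intron), 10844 intronic bases separated the lower-case from the capital bases. The intron held 951 bases in Chrna1 (chr2:73573355-73574335, minus strand) and 79 bases in Chrna4 (chr2:181034015-181034123, minus strand). The point fell between codons and at the same column, 97, of the protein alignment in all 9 genes. A codon for tryptophan followed at the second place after it in each of the 5 genes shown. Over the window, Chrna9 matched Chrna10 at 20 of 30 bases and Chrna6, the closest of the other alpha genes here, at 18.

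On an alignment of the 16 nicotinic subunit proteins, 1 intron of Chrna9 and Chrna10 was found elsewhere only in Chrna7. An intron was taken as shared where it interrupted the codon at the same base and lay within 1 alignment column. Introns 2 and 3 of Chrna9 were shared with Chrna10, with 7 of the 7 other alpha genes and with 7 of the 7 other nicotinic genes. Intron 4 of Chrna9 was shared with Chrna10 and, of the other 14 genes, only with Chrna7, where it was intron 8. Chrnd, Chrne and Chrng had an intron 1 column away, at column 330, that interrupted the codon after its second base and not, as here, after its first. The boundary between the 45-base and 110-base exons was intron 3 of Chrna7, and 0 of the 2 efferent genes had it. Chrna7 had a further 4 coding introns, its introns 5, 6, 7 and 9, that no other nicotinic gene shared by this rule. Its intron 9 lay between codons at column 367, and Chrna1, Chrnb1, Chrnd, Chrne and Chrng had an intron between codons at column 370. Its introns 6 and 7 interrupted a codon after its first base, at columns 230 and 300. Other introns after a first base lay at column 222 in Chrnb1, Chrnd, Chrne and Chrng. They also lay at 294 in Chrna1 and Chrnb1, and at 292 in Chrnd, Chrne and Chrng. The first intron of Chrna9 was not shared with Chrna10 by this rule, since it lay 3 columns away. It was shared with Chrna7, Chrna3, Chrna4 and Chrna6, and with 3 of the 7 other nicotinic genes, Chrnb1, Chrnb2 and Chrng. The first coding intron interrupted a codon after its first base in all 9 alpha genes and lay at alignment columns 25 to 30, near the start of the proteins.

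Chrna9, Chrna10 and Chrna7 also lacked an intron near the end of the coding sequence that the other alpha genes shared. Chrna1, Chrna2, Chrna3, Chrna4, Chrna5 and Chrna6 had an intron at column 617 of the alignment, in 6 of the 9 genes. It was the last coding intron in 5 of them, and Chrna4 had a further one at column 655. Their coding sequence after it was short, 132 bases in Chrna1, 126 in Chrna2 and 162 in Chrna5. The intron at column 617 was also present in Chrnb1 to Chrnb4, Chrnd, Chrne and Chrng. The last coding exon held 542 bases in Chrna9, 449 in Chrna10 and 519 in Chrna7. In Chrna2, Chrna3, Chrna4, Chrna5 and Chrna6 most of the protein was instead encoded by a single large exon of 829 bases (Chrna5) to 1375 bases (Chrna4), or 62.9% to 71.4% of the coding sequence. The largest coding exon made up 37.6% of the coding sequence in Chrna9, 39.7% in Chrna10, 34.4% in Chrna7 and 17.5% in Chrna1.

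The proteins encoded by Chrna9 and Chrna10, translated from the M21 transcripts, were each other's closest relatives in the family, with 55.3% identical residues among aligned positions. Identity of Chrna9 or Chrna10 with the other 7 alpha subunits ranged from 33.7% to 39.9%, with a median of 34.9% over 14 gene pairs. Among the other 7 themselves it ranged from 36.6% to 68.9%, with a median of 50.6% over 21 pairs. The highest value was between Chrna2 and Chrna4, and Chrna3 and Chrna6 followed at 62.3%. Chrna7, which shared the fourth intron of the efferent genes, was 39.9% identical to Chrna10 and 36.0% to Chrna9, its highest and its lowest value with the 8 other alpha subunits. Chrna2 followed Chrna10 at 39.8%. Against the subunits without the cysteine pair, Chrna9 ranged from 27.8% with Chrnb1 to 34.6% with Chrnb3, and Chrna10 from 30.1% with Chrnd to 35.5% with Chrnb4. The pairs share genes and are not independent, so these values are a description.

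**Figure D2:**
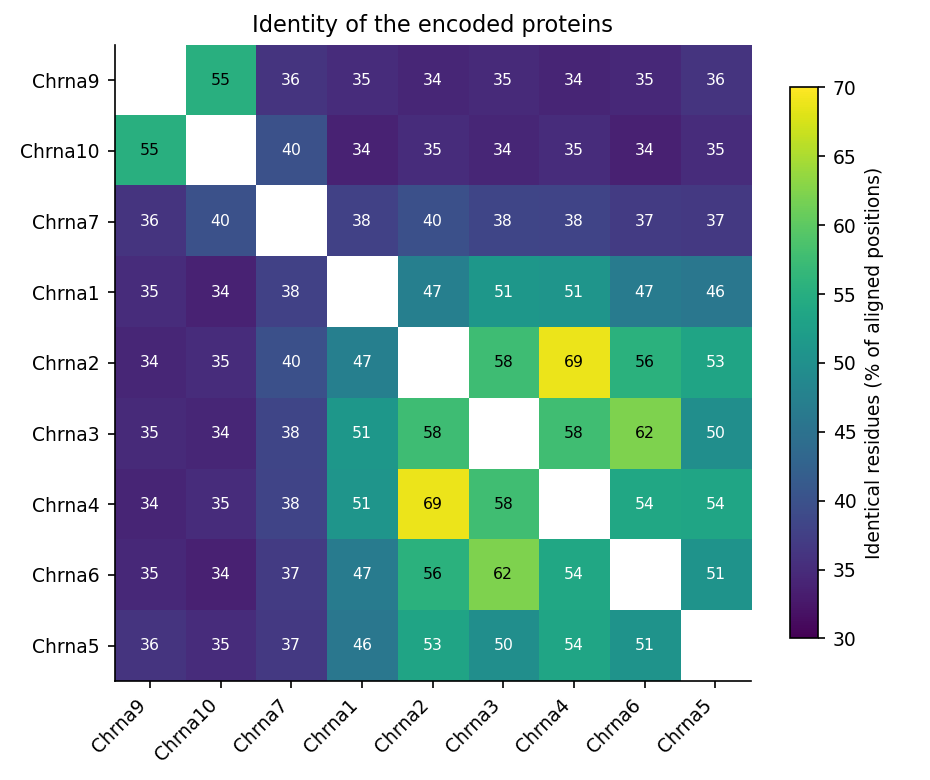
Identical residues, as a percentage of aligned positions, between the proteins of the 9 alpha subunit genes, rounded to whole percentages, with Chrna9 and Chrna10 in the first rows and columns. The Chrna9 and Chrna10 pair stands at 55.3%, while their values with the other 7 genes stay between 33.7% and 39.9%.

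Coding lengths overlapped between the efferent pair and the rest. Chrna9 had 1440 coding bases, for 479 amino acids, and Chrna10 had 1344 bases, for 447 amino acids, stop codon included in the bases. The other alpha genes ran from 1317 bases in Chrna5 to 1926 bases in Chrna4, with a median of 1509, and Chrna1 had 1374 bases. In GENCODE M21 Chrna5 had 1404 coding bases, and Chrna10 was then the shortest alpha gene by coding length. The Chrna4 value belongs to Chrna4-002, whose last 2 coding exons differ from the end of Chrna4-001, a transcript with 1890 coding bases in 6 exons. The median over all protein-coding genes was 1170 bases. Among the nicotinic genes with 6 coding exons, the nearest to Chrna9 in coding length were Chrna6 and Chrnb3, at 45 bases each. The nearest to Chrna10 were Chrna5, at 27 bases, and Chrnb3, at 51 bases. All were nearer than Chrna9 and Chrna10 were to each other, at 96 bases. Genes with more coding exons could be as near, such as Chrna1, with 1374 bases, to Chrna10 and Chrne, with 1485 bases, to Chrna9. Ordered first by number of coding exons, each was the nicotinic gene most like the other, an order that follows from both being the ones with 5 coding exons.

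Chrna9 had the shortest 3' untranslated region of the family, at 79 bases. Chrna10 had 773 bases. Among the other alpha genes it measured, in the transcript where it was longest, 532 bases in Chrna7, 1177 in Chrna6, 1204 in Chrna5, 1458 in Chrna3, 1872 in Chrna2, 2443 in Chrna4 and 2961 in Chrna1. By these longest values, only Chrna7 of the 7 lay below Chrna10, and all lay above Chrna9. In other transcripts the 3' UTR was much shorter, with 143 bases in Chrna4-002, the representative transcript of Chrna4, and 91 bases in Chrna2-002, both below Chrna10 and above Chrna9. Over the annotation, 5.24% of the 19931 protein-coding genes with a 3' UTR had one no longer than that of Chrna9, and the median was 851 bases. For Chrna10 the share no longer was 47.3%.

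**Figure D3:**
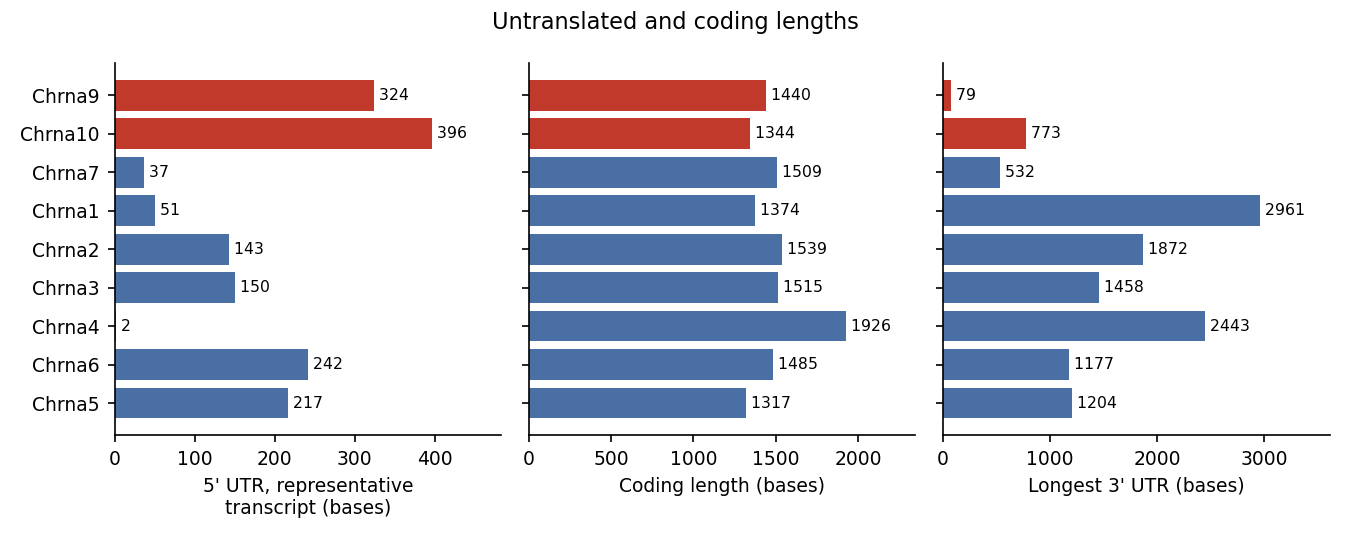
Length in bases of the 5' UTR and the coding sequence of the representative transcript and of the longest 3' UTR of each alpha subunit gene, with Chrna9 and Chrna10 in red at the top and the other 7 genes in blue. Chrna9 and Chrna10 have the longest 5' UTRs, 324 and 396 bases, and Chrna9 has the shortest 3' UTR, 79 bases.

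In a 3' library, reads come from near the end of the transcript. Of the last 500 exonic bases of Chrna9-001, 421 (84.2%) were coding sequence. In Chrna10 the count was 0. In Chrna4-002, the representative transcript of Chrna4, it was 357 (71.4%), so in this annotation a coding-rich 3' end was not particular to Chrna9. It was 0 in Chrna4-001, which has the longest 3' UTR of that gene, and 0 in the representative transcript of each of the other 6 genes. Where reads of these genes fell was not analysed here. The signal that directs cleavage and addition of the poly(A) tail, AATAAA, ended 18 bases before the end of Chrna9-001 and 11 bases before the end of Chrna10-201. Either this motif or its common variant ATTAAA, searched on the transcript strand only in the last 50 bases, was present in 5 of the 6 alpha genes whose exons were the same in M21, against 76.9% of the 16278 protein-coding genes searched. Neither was in this window of Chrna7. Chrna3, Chrna5 and Chrna6 were not searched.

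Other annotations placed the 3' end of some members elsewhere. GENCODE M21 had the same longest 3' UTR for 7 of the 9 genes, Chrna9 and Chrna10 included, and the same coding exon lengths for 8 of 9. Its Chrna3 ended 1232 bases further out, with a 3' UTR of 2690 bases. RefSeq, also on GRCm38, ended Chrna9 160 bases further out and Chrna10 6 bases further out. It ended Chrna5 3641 bases further out, so that its Chrna5 and Chrna3 models overlapped by 1304 bases from opposite strands, whereas in the annotation here they were 3563 bases apart. For Chrna4 and Chrna1 the RefSeq end lay further in than the gene row here, at -3931 and -66 bases. The gene row of Chrna4 ends with Chrna4-002, so RefSeq did not reach the 3' end of that transcript.

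The 5' ends went the other way. The representative transcript of Chrna10 had a 5' UTR of 396 bases and that of Chrna9 one of 324 bases. The other alpha genes had 242 bases in Chrna6, 217 in Chrna5, 150 in Chrna3, 143 in Chrna2, 51 in Chrna1, 37 in Chrna7 and 2 in Chrna4-002. The groups did not overlap in these transcripts, and the median over protein-coding genes was 135 bases. How many protein-coding genes had a 5' UTR at least as long as that of Chrna9 was not counted. With the longest 5' UTR of each gene, Chrna2 reached 303 bases and Chrna4 232 bases, while Chrna9 stood at 352 and Chrna10 at 396. The 352 bases belong to Chrna9-003, an incomplete model with 49 coding bases. Another incomplete model, Chrna9-002, had a 5' UTR of 55 bases, below the representative values of Chrna6, Chrna5, Chrna3 and Chrna2. RefSeq began Chrna2 1803 bases further upstream than its gene row here, Chrna10 258 bases and Chrna9 67 bases. For the other alpha genes the shift upstream was at most 53 bases, in Chrna5. The 5' UTR lengths of the RefSeq models were not measured, so the separation is stated only for the representative and longest values in the annotation here.

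Chrna10 (ENSMUSG00000066279) was the most compact alpha gene. It spanned 5448 bases on the minus strand of chromosome 7 (102111266 to 102116713) and had 1 transcript, with introns of 1142, 589, 605 and 599 bases. Chrna9 (ENSMUSG00000029205; chromosome 5, 65934921 to 65977326, plus strand) spanned 42406 bases, 7.78 times as much. Most of that span came from alternative 5' models: 5 of its 7 transcripts began upstream of Chrna9-001, up to 32203 bases away. Chrna9-001, the 1 Chrna9 transcript with both a start and a stop codon, spanned 10203 bases, or 1.87 times the span of Chrna10. Its introns held 270, 1187, 1546 and 5357 bases.

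The spans of the other 7 genes enclosed those values only in part. Chrna7 (ENSMUSG00000030525; chromosome 7, 63098692 to 63212569) spanned 113878 bases, with an intron of 52526 bases and another of 38106 bases. Chrna5 (ENSMUSG00000035594; chromosome 9, 54980880 to 55007779) spanned 26900 bases and Chrna4 (ENSMUSG00000027577; chromosome 2, 181018380 to 181043546) 25167 bases. Chrna2 (ENSMUSG00000022041; chromosome 14, 66135039 to 66152948), Chrna1 (ENSMUSG00000027107; chromosome 2, 73563215 to 73580338) and Chrna3 (ENSMUSG00000032303; chromosome 9, 55011343 to 55026559) spanned 17910, 17124 and 15217 bases, in that order. Chrna6 (ENSMUSG00000031491; chromosome 8, 27403214 to 27413944) had the smallest span of the 7, at 10731 bases. By gene rows the efferent pair held both the smallest and the second-largest span of the family. By representative transcripts both were below each of the other 7, though Chrna9, at 10203 bases, was close to Chrna6, at 10731. The median span of representative transcripts over all protein-coding genes was 15206 bases. The share of protein-coding genes with a transcript span as small as these is not given here.

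**Figure D4:**
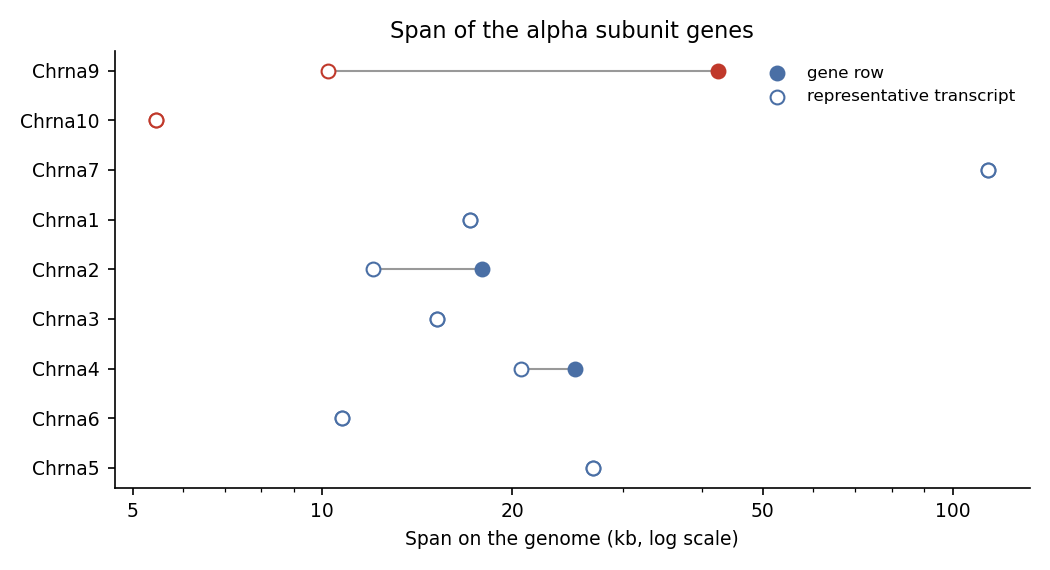
Span on the genome of each alpha subunit gene in kb on a log axis, with Chrna9 and Chrna10 in red at the top; filled points are the whole gene row and open points the representative transcript, joined by a line where they differ. Chrna9 spans 42406 bases by gene row and 10203 bases by transcript, and Chrna10 spans 5448 bases by both.

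Chrna9 and Chrna10 each stood alone on the genome. They lay on different chromosomes, 5 and 7, and neither had another nicotinic receptor gene within 1000000 bases. Chrna10 shared chromosome 7 with Chrna7, 38.9 megabases and 443 genes away. Chrna9 was the only nicotinic gene on chromosome 5. Of the other 7 alpha genes, 3 had a nicotinic gene within 10000 bases, namely Chrna3, Chrna5 and Chrna6. Chrna1, Chrna2, Chrna4 and Chrna7 had none within 1000000 bases, so a solitary position was not particular to the efferent genes.

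The clustered genes lay at 2 places. Chrna5, Chrna3 and Chrnb4, which encode subunits of ganglionic receptors, lay within 67665 bases of chromosome 9 with no other gene in that span. Chrna5 and Chrna3 ended towards each other, 3563 bases apart, and Chrna3 and Chrnb4 ran in the same direction with 1596 bases between them. Chrnb3 and Chrna6 shared 45234 bases of chromosome 8 and likewise ended towards each other, with 3484 bases between. Chrna1 and Chrna4 were on the same chromosome, 2, but 107 megabases apart.

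**Figure D5:**
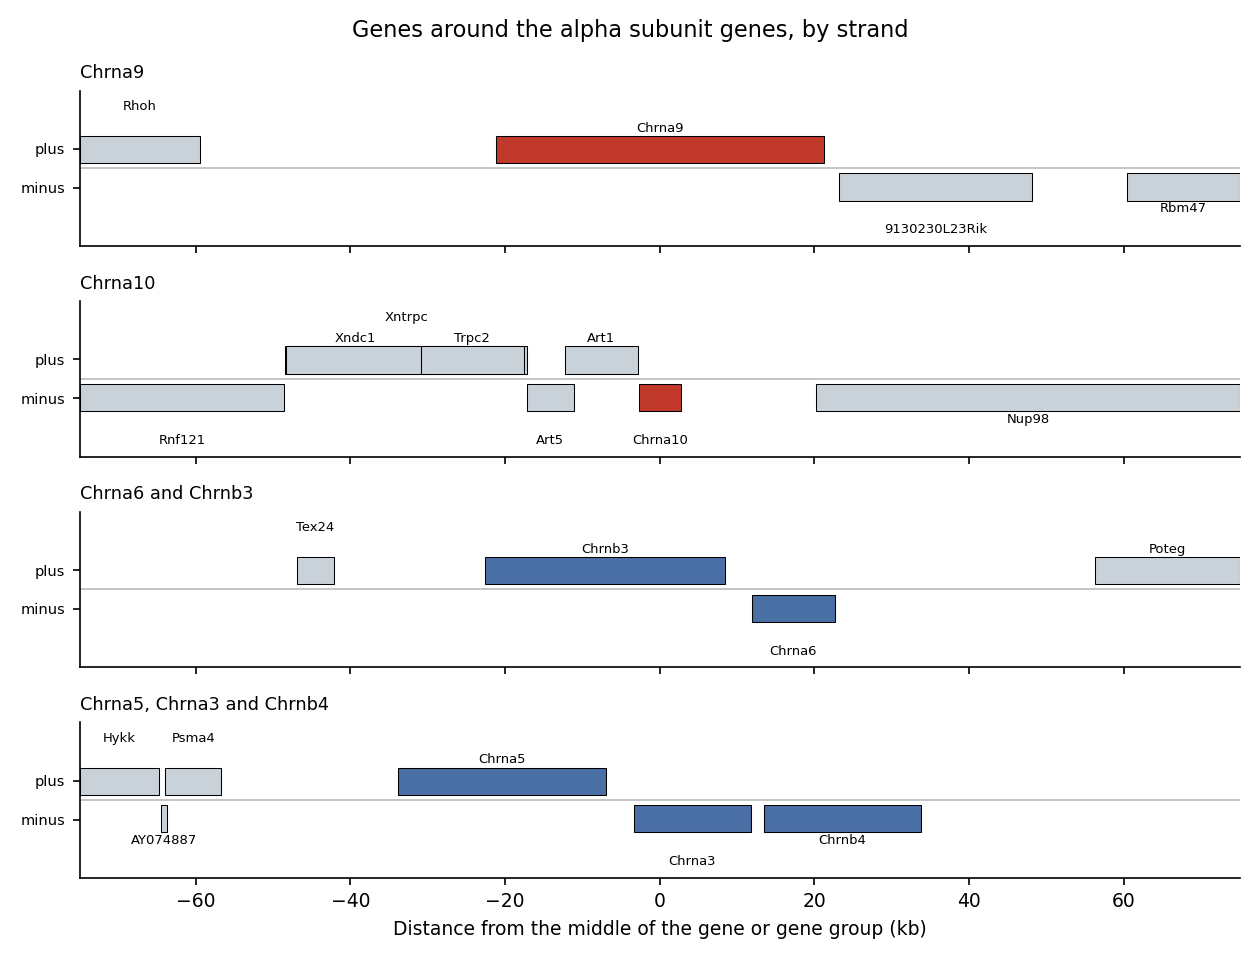
Genes within 75 kb of the middle of Chrna9, of Chrna10, of the Chrna6 group and of the Chrna5 group, with plus-strand genes above and minus-strand genes below each line and distance in kb on the horizontal axis. Chrna9 and Chrna10 (red) have no nicotinic neighbour (blue), while Chrnb3 and Chrna6, and Chrna5, Chrna3 and Chrnb4, lie side by side; other genes are grey.

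The distance to the nearest neighbour differed widely between members. Downstream of Chrna10, the convergent gene Art1, which encodes an ADP-ribosyltransferase, ended 117 bases away, the smallest gap of any alpha gene. Downstream of Chrna9 the convergent gene 9130230L23Rik ended 2031 bases away. Ptk2b, a tyrosine kinase gene, lay 308 bases beyond Chrna2, and Col20a1, a collagen gene, lay 839 bases beyond Chrna4, both on the opposite strand. Upstream, the nuclear pore gene Nup98 was 17490 bases from Chrna10, and Rhoh, which encodes a small GTPase of blood cells, was 38220 bases from Chrna9. No other gene overlapped any of the 9 genes. Within the last 500 exonic bases, overlap with exons of a neighbour transcribed in the same direction was found for 0 of the 9 genes, against 3.24% of protein-coding genes. With either strand it was found for 0 of the 9, against 14.3%.

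The other nicotinic subunit genes and the partners of the receptor set these values in context. The 7 other nicotinic genes had a median of 11 exons, from 6 in Chrnb2, Chrnb3 and Chrnb4 to 12 in Chrnd, Chrne and Chrng, and a median coding length of 1506 bases. Their longest 3' UTRs ran from 90 bases in Chrne, the adult muscle subunit gene, to 4667 bases in Chrnb2, so a very short 3' UTR was not confined to Chrna9. The 12 related channel genes, of GABA, glycine and serotonin receptors, had 9 or 10 exons each, and their longest 3' UTRs ran from 22 bases in Glra4 to 4205 bases in Gabra2. Kcnn2, the gene of the potassium channel coupled to the efferent receptor, spanned 417165 bases with 2520 coding bases and a 3' UTR of 462 bases. Rapsn, whose product clusters receptors, had 1239 coding bases and a 3' UTR of 211 bases. Ric3, a receptor chaperone gene, had 4132 bases of 3' UTR, Tmem35, another chaperone gene, 1129 bases and Ache, the acetylcholinesterase gene, 228 bases.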

How the data were processed

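The only file used was the authors' deposited gene annotation, shared by both libraries, whose values are the first and last bases of features. Per the file headers it follows GRCm38.p4 with a gene build updated in 2016. It held 0 columns of per-sample values, so depth and its precision concern no value here. The tool named in the submitters' processing notes is Cell Ranger 2.0.2, without a role.

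The representative transcript was the protein-coding one with the longest coding sequence, and ties went to the longer transcript. It was found for 21990 protein-coding genes. Coding lengths include the stop codon. The longest 3' UTR was taken over transcripts with a stop codon. Bases came from GENCODE M21 transcripts, for the 16 nicotinic genes those with the same coding blocks. Proteins were translated with Biopython 1.88 and aligned with MAFFT 7.526 (global pairs, 100 iterations). Figures were drawn with Matplotlib 3.10.9 under Python 3.11.15.

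The members, lists and measures were chosen with earlier results of these data known. All 9 alpha genes are named, and from the comparison lists the genes near a member, those with the lowest and highest values and, outside that rule, all 5 receptor partners. Alternatives were other transcripts, exon counts, windows, gap limits and GENCODE M21.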

Additional observations from a re-analysis of the deposited data

How the results depend on the processing

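Differences are the median of Chrna9 and Chrna10 minus the median of the other 7 alpha genes. The difference in span turned from 6017 bases by gene rows to -9298.5 bases by representative transcripts, because the upstream models of Chrna9 are then left out. In GENCODE M21 it was 6074.5 bases. The difference in coding length was -117 bases, and -425 bases with the median over transcripts, which includes incomplete models. The difference in exons was -2, against -0.5 with the union of exons over transcripts and -1 with coding exons only. The difference in longest 3' UTR was -1032 bases. It was -778 bases in the representative transcript, -751 bases as the median over transcripts and -1446 bases in M21. The difference in 5' UTR was 217 bases, and 157 bases with the longest 5' UTR. The count of genes with a nicotinic neighbour was 3 at all gap limits. That of shared windows was 0 at 200, 500 and 1000 bases on the same strand and at 500 bases on either strand. Adjacent exons of 155 and 533 bases were found in 2 genes in any protein-coding transcript and in M21, and those of 45 and 110 bases in 20 and 19 genes; these alternatives were added after seeing the data. No paired analysis was possible because no value per library was analysed, and for the same reason no library could be left out and the planned comparison of Ikzf2 with GFP expression was not run.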

Other observations

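The start regions of the members differed in base composition. RefSeq promoter windows on GRCm38.p6, 250 bases before to 50 bases after the start, were given for 7 of the 9 genes; Chrna2 and Chrna6 had no entry. The Chrna10 window held 1 CpG dinucleotide and the Chrna9 window 6, against a median of 7 over 32851 windows. Chrna7 held 35, Chrna4 33, Chrna3 18 and Chrna1 7. Chrna5 had a window with 5 and another with 25, 608 bases further downstream. More CpGs than in Chrna10 were found in 85.9% of all windows, and more than in Chrna7 in 6.23%. The start used for the window coincided with the start of the representative transcript in Chrna9 and in Chrna10. The RefSeq gene models reached further upstream. That of Chrna9 began 67 bases beyond the start of its gene row, which itself lay 32203 bases upstream of Chrna9-001. That of Chrna10 began 258 bases upstream of Chrna10-201.

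Chrna10 had the highest coding GC content of the 9 genes, at 60.0%, which 11.5% of the 20776 genes measured exceeded. Chrna9 stood at 51.6%, close to the median of 51.9% over those genes, and Chrna5 was lowest at 45.7%.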
